A study of Mus musculus and Rattus norvegicus with 30 samples.

Results

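The agonist 915 was given to neonatal rat ventricular myocytes (NRVM, heart muscle cells taken from newborn rats and grown in a dish). Their estrogen-related receptors ERRalpha and ERRgamma had first been targeted by siRNA. The transcripts of treated cells were compared with those of vehicle-treated cells of the same knockdown. The comparison used 6 libraries, 3 with 915 and 3 with vehicle, chosen by their labels and column names out of 30 samples in the series, of which 12 were rat; no measured value entered the choice. Cells came from pups of postnatal day 3, were pre-plated on plastic to let fibroblasts attach, and were grown with bromodeoxyuridine. The knockdown groups carried siRNA against ERRalpha and ERRgamma, used at 25 nM in the protocol, and received either 915 at 10 µM or the same volume of DMSO for 24 hours. Poly(A) RNA was sequenced without strand information. In a second set of 6 libraries a scramble siRNA took the place of the knockdown siRNA, and 915 or DMSO was given in the same way. These libraries served to show where the knockdown cells differed. They were also part of the fit, so they entered the estimate of spread behind the p-values of the knockdown cells. The knockdown was transient and partial. The labels do not say whether replicates came from separate isolations or from separate wells, so the p-values below measure the spread between these libraries, which may be technical.

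The estrogen-related receptors are orphan nuclear receptors, transcription factors of the steroid receptor family that need no natural hormone to act. In heart muscle they bind the control regions of genes for fatty acid oxidation, the tricarboxylic acid cycle, the respiratory chain and contraction, and switch them on together with the coactivators PGC-1alpha and PGC-1beta. ERRalpha is encoded by Esrra, ERRbeta by Esrrb and ERRgamma by Esrrg. The comparison asks what 915 did to transcripts in cells with few Esrra and Esrrg transcripts. Receptor protein was not measured here.

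Libraries of the knockdown cells held 12013379 to 17641123 counts, with the 3 vehicle libraries at 16408568 or more and the 3 libraries with 915 at 15085209 or fewer. Levels are given in CPM, counts scaled to a common library total and corrected for library composition, and are listed for replicates 1, 2 and 3 of a group. A level in CPM is not corrected for gene length. Changes are log2 differences, 915 minus vehicle, from a fit over 15181 genes with n = 3 libraries per group. The standard error (SE) beside a change was computed from that change and its test statistic. A gene is said to have risen or fallen where its adjusted p was under 0.05. The cells are labelled isolated cardiomyocytes, and the 9 cardiomyocyte markers in the table were all detected. Their levels summed to 9339 to 9725 CPM with vehicle and 7459.9 to 9563 CPM with 915. Markers of other cells were present as well. Fibroblast markers summed to 10831 to 12478 and 7262 to 9452 CPM in vehicle and 915 libraries, and those of smooth muscle and pericytes to 5569 to 6263 and 2881 to 3386 CPM. Endothelial markers summed to 51.2 to 56.8 and 61.8 to 67.7 CPM. In bulk RNA, fewer cells of a type and less RNA per cell cannot be told apart. Replicates 1 and 3 of the knockdown cells with 915 lay at opposite ends of the third principal component of the 12 libraries.

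Transcripts of the targeted receptors were low in all 6 knockdown libraries, and 915 did not move them past the test. For Esrra (ENSRNOG00000021139, chromosome 1, 222168730 to 222178725, rn6 coordinates) the levels were 13.98, 21.9 and 16.1 CPM with vehicle and 12.7, 13.4 and 18.9 CPM with 915. The ranges overlap, and the change was -0.20 (SE 0.19, adjusted p = 0.48). Scramble vehicle cells read 199, 178 and 169 CPM for this gene. Esrrg (ENSRNOG00000002593, chromosome 13, 106463368 to 106683436) gave 18.7, 18.1 and 17.5 CPM with vehicle and 25.1, 16.1 and 22.2 CPM with 915, a change of 0.22 (SE 0.12, adjusted p = 0.18). Scramble vehicle cells held 131, 130.3 and 131 CPM. Esrrb, which the labels do not name as a target of the siRNA, read 1.06, 0.665 and 1.19 CPM with vehicle and 1.49, 1.49 and 1.78 CPM with 915 (0.71, SE 0.29, adjusted p = 0.058). Neither coactivator gene passed the test. Ppargc1a was at 27.1, 26.3 and 25.7 against 26.2, 21.8 and 22.97 CPM (-0.16, SE 0.10). Ppargc1b was at 35.3, 32.4 and 30.3 against 26.9, 30.5 and 39.97 CPM (-0.0044, SE 0.11). Of the 12 tested genes of the receptor family and its cofactors, 0 rose and 1 fell with 915 in knockdown cells, where 18.1% and 17.6% of all 15181 genes did. The gene that fell was Ncoa2, a steroid receptor coactivator, with -0.20 (SE 0.057, adjusted p = 0.0076). In scramble cells 4 of these 12 rose, where 21.5% of all genes did. The 915 effect differed between the cell states for 3 of them, always lower in knockdown cells (1.99% of all genes). For Esrrg the difference of the log2 changes was -0.88 (SE 0.15, adjusted p = 0.0048), and for Ppargc1b -0.60 (SE 0.15, adjusted p = 0.037, up to 0.12 with a library left out). For Perm1, a muscle regulator that acts with PGC-1, it was -0.95 (SE 0.12, adjusted p = 2.3e-05). Perm1 read 8.69, 7.98 and 7.48 CPM with vehicle and 7.71, 7.795 and 8.12 CPM with 915 in knockdown cells. With a library left out, Esrrg passed without replicate 2 of the knockdown 915 group (0.39, adjusted p = 0.00063). Likewise, Esrrb passed without replicate 3 of the knockdown vehicle group (0.88, adjusted p = 0.044).

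With receptor transcripts at these levels, 915 still changed 5418 of 15181 genes (35.7%), of which 2745 rose (18.1%) and 2673 fell (17.6%). The median size of the change among called genes was 0.41 on the log2 scale, and 258 genes rose and 344 fell by at least 2-fold. With replicate 1 or replicate 3 of the treated knockdown cells left out, the count of changed genes was 5056 or 4659. The counts of list members given further on are to be read against these shares. The median change over all tested genes was -0.0014. In scramble cells 915 changed 6400 genes (42.2%), with 3268 higher (21.5%) and 3132 lower (20.6%). The effect differed between knockdown and scramble cells for 566 genes (3.73%): it was higher in knockdown cells for 264 (1.74%) and lower for 302 (1.99%). The count of differing genes lay between 259, without replicate 3 of the scramble cells with 915, and 677, without replicate 3 of the knockdown cells with 915, when each of the 12 libraries was left out in turn. It was 305 and 359 without replicates 1 and 3 of the knockdown vehicle cells, 321 without replicate 2 of the scramble vehicle cells and 365 without replicate 2 of the knockdown cells with 915. Of the 87 differing genes named in these results, 58 were called without any of the 12 libraries, and the other 29 were lost without replicate 3 of the scramble cells with 915. Where the difference of such a gene is first given here, the highest adjusted p with a library left out stands beside it.

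**Figure D1:**
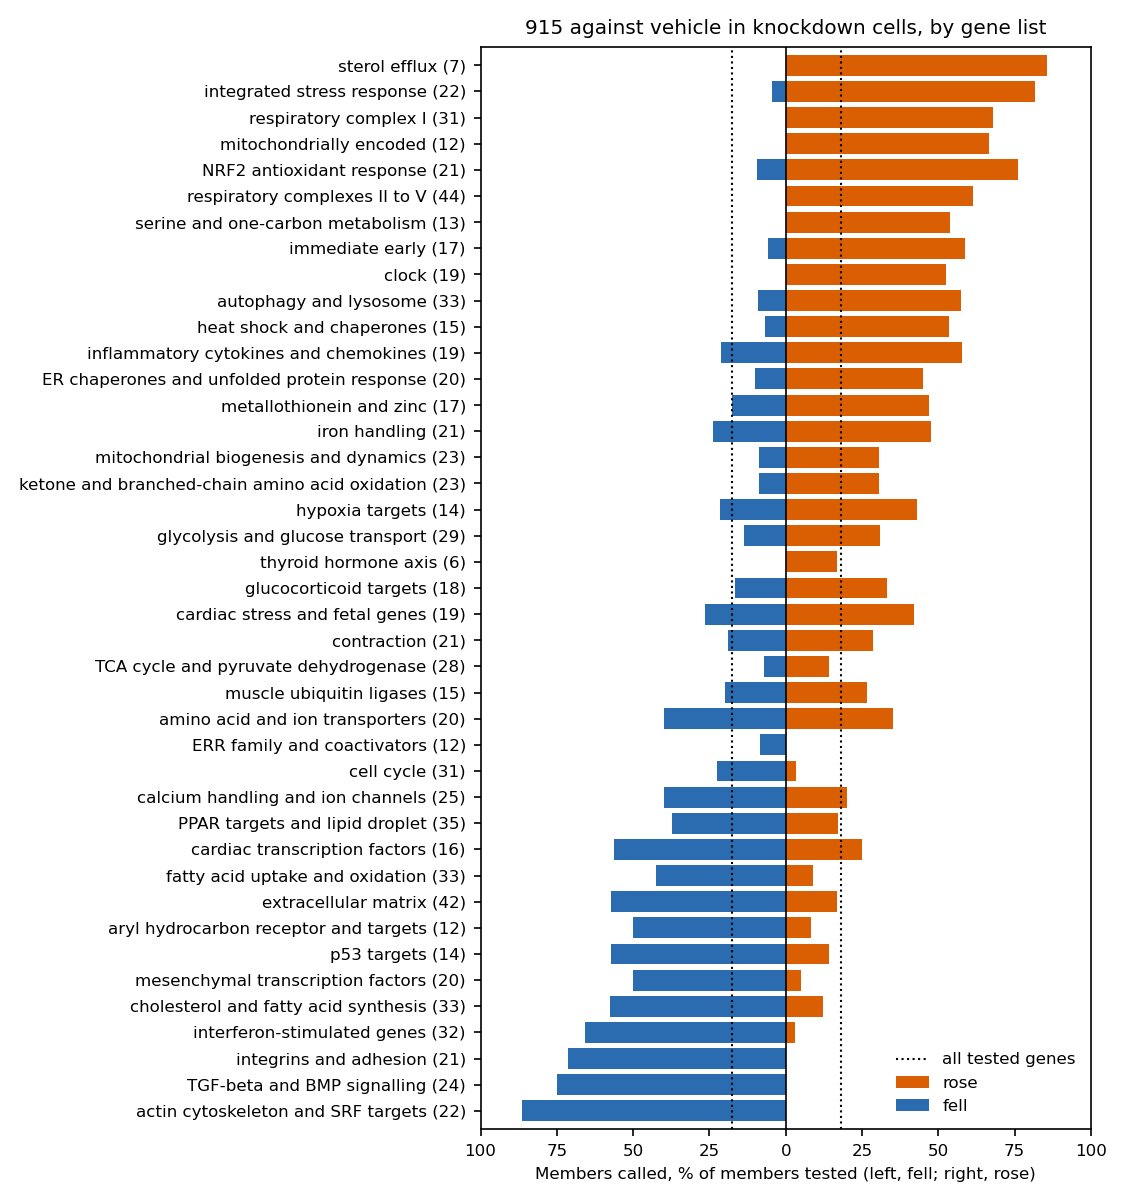
Share of the tested members of each gene list that rose (right, orange) or fell (left, blue) with 915 in knockdown cells, in percent of the members, with the number tested beside the list's name; dotted lines mark the 18.1% of all genes that rose and the 17.6% that fell. Respiratory chain and integrated stress response lists lie on the right, and actin, integrin, TGF-beta and interferon lists on the left.

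The largest rises, among called genes of at least 5 CPM whose groups did not overlap, included metal and iron genes. Metallothioneins are small cysteine-rich proteins that bind zinc and copper and are induced by metals, oxidants and glucocorticoids. Mt2A (ENSRNOG00000043098, chromosome 19, 11307967 to 11308740) stood at 83.5, 66.5 and 78.4 CPM with vehicle and 463, 427 and 497 CPM with 915. The table's gene models named Mt1 gave 18.2, 14.4 and 21.1 against 177, 139 and 149 CPM and 62.7, 49.4 and 59.6 against 453, 414 and 523 CPM. All 3 libraries with 915 lay above all 3 with vehicle for each of these rows, as their choice among the largest rises required. The rows named Mt1 are near-identical copies among which reads can be split, so their levels are uncertain. Among the 17 tested genes of metallothioneins and zinc transport, 8 rose, 3 fell and 6 did not pass (median 0.31). Slc39a14, a zinc and iron importer, rose by 0.56 (SE 0.050, adjusted p = 3.4e-09). Slc39a10, a zinc importer of the plasma membrane, read 52.4, 49.4 and 53.4 CPM and then 34.8, 29.5 and 25.8 CPM, a change of -0.79 (SE 0.10, adjusted p = 1.1e-06). Slc39a1, the most abundant member that did not pass, had a change of -0.00073 (SE 0.047). No member of this list passed the test of the difference between knockdown and scramble cells.

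Of the 21 tested iron genes 10 rose and 5 fell (median 0.25). Hamp, which encodes the iron hormone hepcidin, read 4.62, 5.71 and 4.69 CPM with vehicle and 23.3, 22.7 and 26.01 CPM with 915. Lcn2, lipocalin 2, a secreted protein that binds iron-carrying siderophores and is an acute-phase gene, read 52.02, 66.2 and 65.3 and then 272, 259.6 and 262 CPM. Ftl1, the ferritin light chain that stores iron, rose from 1664, 1606 and 1624 to 2844, 2974 and 3121 CPM (0.87, SE 0.053, adjusted p = 4.3e-12). Hmox1, the haem-degrading oxygenase, rose from 336, 336 and 357 to 688, 703 and 737 CPM (1.05, SE 0.047, adjusted p = 3.1e-14). The CPM ranges of vehicle and 915 did not overlap for these 4 genes. For Hamp and Lcn2 this was a condition of being named among the largest rises. Bmp6, the BMP ligand that drives hepcidin transcription in the liver, fell in the same cells, by -1.07 (SE 0.079, adjusted p = 1.3e-10). The mitochondrial iron carrier Slc25a28 did not pass (0.16, SE 0.084). On leaving out a library, Slc25a28 passed without replicate 2 of the knockdown vehicle group (0.25, adjusted p = 0.039).

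Genes of dioxin and drug metabolism under the aryl hydrocarbon receptor were among the largest falls. This receptor is a ligand-activated factor whose best known targets are the cytochrome P450 genes Cyp1a1 and Cyp1b1 and its own repressor Ahrr. Cyp1a1 stood at 11.5, 11.3 and 9.7998 CPM with vehicle and 0.944, 0.974 and 1.14 CPM with 915, the largest fall among the named genes. Cyp1b1 was at 87.8, 90.8 and 90.8 against 24.4, 28.1 and 20.3 CPM (-1.89, SE 0.085, adjusted p = 3.1e-14). Ahrr fell by a log2 change of -1.79 (SE 0.22, adjusted p = 6e-07) and Nqo1, a quinone reductase shared with the NRF2 pathway, by -0.72 (SE 0.066, adjusted p = 6.2e-09). Of 12 tested members 6 fell and 1 rose (median -0.50), and in scramble cells 5 fell and 2 rose. No member passed the test of the difference between the cell states.

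NRF2 is the factor that induces antioxidant and glutathione enzymes under oxidative or electrophilic stress. Of its 21 tested targets and partners 16 rose and 2 fell (median 0.50). Besides Ftl1 and Hmox1, the autophagy receptor Sqstm1 rose from 1239, 1224 and 1253 to 1999, 1946 and 2121 CPM (0.71, SE 0.048, adjusted p = 3.9e-11). Nqo1 was among the 2 that fell. Nfe2l2, the gene of NRF2 itself, read 248, 214 and 252 against 269, 242 and 257 CPM (0.10, SE 0.056), which did not pass. The rise was smaller in knockdown than in scramble cells for 4 members. The difference was -0.52 (SE 0.071, adjusted p = 6.5e-05) for the thioredoxin reductase Txnrd1 and -0.46 (SE 0.091, adjusted p = 0.0035) for the sulfiredoxin Srxn1. It was -0.63 (SE 0.13, adjusted p = 0.0076) for the glutathione transferase Gsta4 and -0.28 (SE 0.068, adjusted p = 0.021, up to 0.073 with a library left out) for Sqstm1. Gsta4 read 18.6, 16.6 and 15.6 then 28.5, 22.4 and 25.8 CPM in knockdown cells and 29.1, 26.3 and 28.3 then 66.3, 59.1 and 69.6 CPM in scramble cells. Between the cell states the groups with 915 did not overlap, and neither did the vehicle groups.

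The integrated stress response is the programme in which phosphorylation of a translation factor raises the transcription factor ATF4 and its targets for amino acid supply. With 915, 18 of 22 tested members rose and 1 fell (median 0.63). Gdf15, a secreted stress hormone, read 203, 207 and 206 CPM with vehicle and 427, 449 and 476 CPM with 915 (1.13, SE 0.052, adjusted p = 3.1e-14). Ppp1r15a, the phosphatase subunit that reverses the response, read 193, 189.8 and 189 and 364, 382 and 435 CPM (1.04, SE 0.059, adjusted p = 1.7e-12). The transcription factor Cebpb rose by 0.78 (SE 0.053, adjusted p = 3.7e-11), and Slc3a2, the heavy chain of amino acid exchangers, by 0.69 (SE 0.051, adjusted p = 1.1e-10). The vehicle and 915 ranges were apart for each of these 4 genes. In scramble cells 17 of the 22 rose (median 0.51). Ddit3, the death-related factor CHOP, was the member whose effect differed, at 0.53 (SE 0.057) in knockdown and 0.85 (SE 0.057) in scramble cells (difference -0.32, SE 0.080, adjusted p = 0.024, up to 0.081 with a library left out). Vldlr, a lipoprotein receptor in the list, did not pass (-0.029, SE 0.050).

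Neighbouring stress programmes moved in part. Of 13 genes of serine and one-carbon metabolism, many of them fed by ATF4, 7 rose and 0 fell. The mitochondrial enzymes Shmt2 (0.58, SE 0.061, adjusted p = 4.8e-08) and Mthfd2 (0.48, SE 0.061, adjusted p = 1.1e-06) rose. So did Gpt2 (0.63, SE 0.087, adjusted p = 2.5e-06) and Pck2 (0.49, SE 0.084, adjusted p = 5e-05). Mthfd1, the cytosolic counterpart, did not pass (0.016, SE 0.088). Phgdh, the entry enzyme of serine synthesis, had a change of 0.31 (SE 0.061) in knockdown and -0.0090 (SE 0.061) in scramble cells (difference 0.31, SE 0.086, adjusted p = 0.041, up to 0.12 with a library left out). Of 20 chaperone and unfolded protein response genes of the endoplasmic reticulum 9 rose and 2 fell. Dnajb9 was at 0.77 (SE 0.074, adjusted p = 1.3e-08) and the sensor Atf6 at 0.53 (SE 0.053, adjusted p = 2.6e-08). The splicing-activated factor Xbp1 was at 0.49 (SE 0.059, adjusted p = 3.8e-07) and the lumenal chaperone Hspa5 at 0.42 (SE 0.050, adjusted p = 3.9e-07). Calr, an abundant calcium-binding chaperone, did not pass (0.016, SE 0.056). Herpud1, of the degradation machinery, rose by 0.29 (SE 0.055) in knockdown cells against -0.048 (SE 0.055) in scramble cells (difference 0.34, SE 0.078, adjusted p = 0.013, up to 0.065 with a library left out). Creld2 rose by 0.40 (SE 0.078) against -0.016 (SE 0.077) (difference 0.42, SE 0.11, adjusted p = 0.031, up to 0.099 with a library left out). Of 15 heat shock genes 8 rose and 1 fell. Among the risen were the small heat shock protein Hspb8 (0.69, SE 0.052, adjusted p = 2.1e-10) and its partner Bag3 (0.29, SE 0.049, adjusted p = 4.5e-05). Hspb1 (0.26, SE 0.046, adjusted p = 8.6e-05) and the inducible Hspa1b (0.74, SE 0.14, adjusted p = 0.00013) rose as well. The muscle-enriched members Hspb7 and Cryab and also Hspb8 rose less than in scramble cells. Hspb7 read 419.6, 419 and 402 then 481, 475 and 590.2 CPM in knockdown and 904, 783 and 842 then 1628, 1670.0 and 1633 CPM in scramble cells (difference -0.65, SE 0.10, adjusted p = 0.0004). For Cryab the difference was -0.27 (SE 0.070, adjusted p = 0.031, up to 0.1 with a library left out) and for Hspb8 -0.46 (SE 0.073, adjusted p = 0.00037). After removal of a library, Cryab did not pass without replicate 3 of the knockdown 915 group (0.091, adjusted p = 0.17), the highest p of 10 such losses.

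Sterol lists differed by role, with more falls than rises in synthesis and more rises than falls in efflux. SREBP2 is the factor that induces cholesterol synthesis when sterol is scarce, and the liver X receptors induce efflux genes when sterol is plentiful. Hmgcs1, the synthase that feeds HMG-CoA reductase, read 109, 106 and 106 and 51.7, 50.3 and 47.7 CPM (-1.10, SE 0.058, adjusted p = 3.9e-13). Idi1, an isoprenoid isomerase, read 17.9, 18.3 and 17.3 and 5.35, 5.39 and 6.73 CPM (-1.61, SE 0.12, adjusted p = 8.2e-11). Cyp51, the lanosterol demethylase, fell by a log2 change of -0.97 (SE 0.058, adjusted p = 3.5e-12). Every 915 library lay below every vehicle library for these 3 genes. In all, 19 of 33 tested synthesis genes fell and 4 rose (median -0.28). Fasn, the fatty acid synthase, did not pass (-0.10, SE 0.045). The efflux list was small, with 6 of 7 risen and 0 fallen (median 0.83). The cholesterol exporter Abcg1 read 21.8, 25.1 and 20.97 then 58.5, 56.1 and 56.5 CPM (1.33, SE 0.079, adjusted p = 3.5e-12). The exporter Abca1 read 149, 128 and 148 then 271, 243 and 244 CPM (0.83, SE 0.060, adjusted p = 1.1e-10). The lipid carrier Apoe rose by 0.90 (SE 0.070, adjusted p = 7.9e-09) and the receptor gene Nr1h3, which encodes LXRalpha, by 0.97 (SE 0.12, adjusted p = 8.1e-07). Lpcat3 was the member that did not pass (-0.058, SE 0.064). Of both sterol lists, Fdft1, squalene synthase, was the gene whose effect differed from scramble cells (-0.31, SE 0.064 against -0.68, SE 0.064, difference 0.38, SE 0.090, adjusted p = 0.018, up to 0.059 with a library left out).

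**Figure D2:**
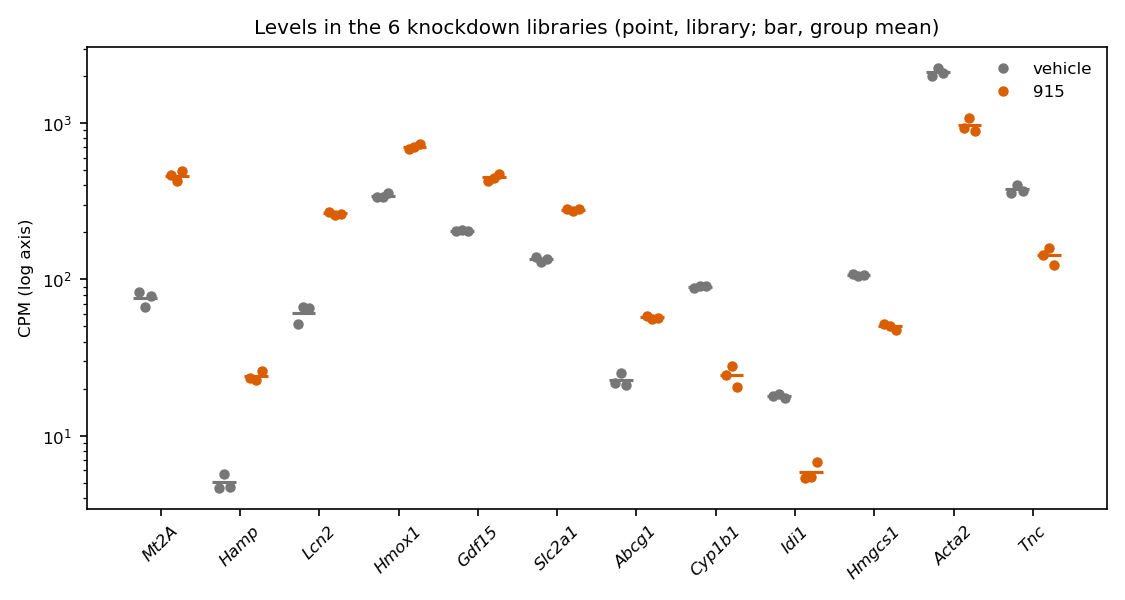
CPM in each knockdown library (points) with vehicle (grey) or 915 (orange) for 12 genes of metal, drug, sterol, stress and matrix biology, on a log axis, with a bar at each group's mean. For every gene shown the 3 points with 915 are apart from the 3 with vehicle, as for Cyp1b1 at 87.8 CPM or more with vehicle and 28.1 CPM or less with 915. For Mt2A, Hamp, Lcn2 and Cyp1b1 this was a condition of being named among the largest changes.

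Fatty acid genes held more falls than rises with 915 in knockdown cells. Many of them are known targets of the ERRs and of the PPARs, the fatty acid-sensing nuclear receptors. Of 33 genes of fatty acid uptake and oxidation 14 fell and 3 rose (median -0.18). Of 35 PPAR targets and lipid droplet genes 13 fell and 6 rose (median -0.11). Acsl1, which activates long-chain fatty acids, read 328, 306 and 313 CPM with vehicle and 177, 150.1 and 177 CPM with 915 (-0.91, SE 0.059, adjusted p = 1.5e-11). Cpt1a, the liver-type carnitine palmitoyltransferase, fell from 291, 284 and 295 to 189.7, 189 and 199.7 CPM (-0.59, SE 0.047, adjusted p = 5.7e-10). Cpt1b, the muscle-type enzyme, was 188, 184 and 179 and 173, 151 and 199 CPM and did not pass (-0.072, SE 0.073). Acadl, a long-chain acyl-CoA dehydrogenase, fell by a log2 change of -0.48 (SE 0.051, adjusted p = 5.3e-08) and Decr1, which handles unsaturated chains, by -0.73 (SE 0.067, adjusted p = 6.4e-09). Acacb, the muscle-enriched acetyl-CoA carboxylase, did not pass (-0.24, SE 0.089), and neither did Lpl, lipoprotein lipase (-0.11, SE 0.066). Aqp7, the channel that passes glycerol out of fat-storing cells, fell from 23.4, 22.3 and 19.7 to 3.22, 3.703 and 5.84 CPM. Txnip, a glucose-responsive brake on glucose uptake, fell by a log2 change of -0.59 (SE 0.055, adjusted p = 8.5e-09). In fits without a library, Cpt1b passed without replicate 3 of the knockdown 915 group (-0.18, adjusted p = 0.021). Likewise, Acacb passed without replicate 3 of the knockdown 915 group (-0.36, adjusted p = 0.00012).

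Several genes of fuel use, named here because their effect differed, fell less in knockdown cells than in scramble cells. Pdk4, the kinase that inhibits pyruvate dehydrogenase, read 188, 163 and 166 then 76.4, 64.4 and 74.99 CPM in knockdown cells and 359.5, 303 and 347 then 79.9, 82.8 and 69.7 CPM in scramble cells. The difference of its effects was 0.86 (SE 0.12, adjusted p = 0.00099). In knockdown cells Pdk4 still fell by a log2 change of -1.26 (SE 0.088, adjusted p = 3.4e-08). Ucp3, the muscle uncoupling protein, had the widest gap of these, -1.17 (SE 0.23) in knockdown and -3.16 (SE 0.23) in scramble cells (difference 1.99, SE 0.32, adjusted p = 0.00041). Its levels in knockdown cells were 5.46, 4.16 and 6.12 then 3.303, 2.14 and 1.59 CPM. The secreted lipase inhibitor Angptl4 fell less as well (-0.52, SE 0.050 against -1.54, SE 0.051, difference 1.03, SE 0.071, adjusted p = 3.2e-09). Lipe, hormone-sensitive lipase, had the same direction (-0.81, SE 0.084 against -2.02, SE 0.092, difference 1.205, SE 0.12, adjusted p = 1.9e-06). Ucp2 had it too (-0.50, SE 0.060 against -1.33, SE 0.061, difference 0.82, SE 0.085, adjusted p = 1.9e-06). For Decr1 the difference was 0.75 (SE 0.094, adjusted p = 2.7e-05). Acsl1, in contrast, fell further in knockdown cells (-0.48, SE 0.057 in scramble cells, difference -0.43, SE 0.082, adjusted p = 0.0027). Slc27a1, a fatty acid transporter, had opposite signs, 0.24 (SE 0.057) in knockdown and -0.37 (SE 0.056) in scramble cells (difference 0.60, SE 0.080, adjusted p = 5e-05).

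**Figure D3:**
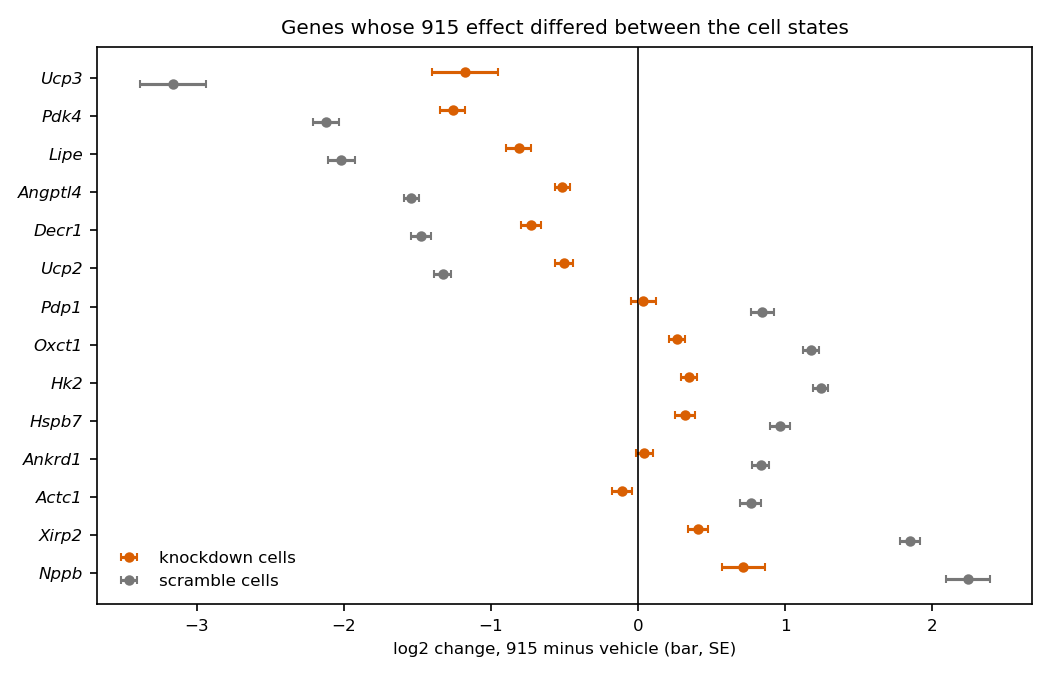
Log2 change with 915 (point) and its SE (bar) in knockdown cells (orange) and scramble cells (grey) for fuel and heart genes whose 915 effect differed between the cell states. Falls of the fuel genes, such as Pdk4 and Ucp3, lie closer to 0 in knockdown cells, and rises of the heart genes, such as Nppb and Xirp2, do so too.

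Most respiratory chain transcripts rose with 915 in knockdown cells. Of 75 rows for nuclear-encoded genes of complexes I to V and cytochrome c, 48 rose and 0 fell in knockdown cells (63 rose and 0 fell in scramble cells). Cox6b1, Cycs and Cox7a2 are each counted in more than a single row, and values given for Cox6b1 and Cycs are those of a single row. In complex I 21 of 31 rose (median 0.33). Ndufs7 rose from 74.7, 70.2 and 72.6 to 119, 116 and 111 CPM (0.66, SE 0.055, adjusted p = 9.1e-10). Further rises were in Ndufb2 (0.60, SE 0.070, adjusted p = 2.5e-07), Ndufb8 (0.45, SE 0.063, adjusted p = 3e-06) and Ndufs8 (0.49, SE 0.073, adjusted p = 8.9e-06). Of 44 rows for complexes II to V and cytochrome c, 27 rose (median 0.32). Cox6a2, the striated-muscle subunit of cytochrome c oxidase, rose from 325, 322 and 296 to 557, 566 and 655 CPM (0.92, SE 0.070, adjusted p = 6.2e-09). The ATP synthase subunits Atp5j2 and Atp5g2 rose by 0.66 (SE 0.065, adjusted p = 2.2e-08) and 0.55 (SE 0.060, adjusted p = 9.4e-08), and Cox6b1 by 0.51 (SE 0.063, adjusted p = 7.8e-07). Atp5b, the catalytic beta subunit and the most abundant transcript of the list, did not pass (0.061, SE 0.058). The 915 effect was lower than in scramble cells for 4 genes of these lists and higher for 0. Among them were Ndufs1 of complex I (-0.070, SE 0.064 against 0.32, SE 0.062, difference -0.39, SE 0.089, adjusted p = 0.013, up to 0.055 with a library left out) and Cycs, cytochrome c (0.0056, SE 0.060 against 0.32, SE 0.057, difference -0.31, SE 0.083, adjusted p = 0.035, up to 0.13 with a library left out). Uqcrc2 of complex III differed too (-0.10, SE 0.054 against 0.16, SE 0.052, difference -0.26, SE 0.075, adjusted p = 0.049, up to 0.17 with a library left out). None of these 3 passed the test in knockdown cells.

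Transcripts of the mitochondrial genome rose alongside, 8 of 12 with 0 lower (median 0.30). Mt-nd6 rose by 0.58 (SE 0.085, adjusted p = 0.00011) and Mt-nd5 by 0.52 (SE 0.10, adjusted p = 0.0018). Mt-cytb rose by 0.35 (SE 0.069, adjusted p = 0.0003) and Mt-co1 by 0.28 (SE 0.068, adjusted p = 0.0021). Mt-nd1 did not pass (0.18, SE 0.094). Mt-nd5 and Mt-nd6 lie on opposite strands next to each other, and with reads that carry no strand their overlap cannot be told apart. The mitochondrial genome took 4.87% ± 0.398 (SD, n = 3) of counts with vehicle and 6.39% ± 0.451 with 915. The difference was 1.53 percentage points with no overlap of the libraries (exact permutation p = 0.1, counting both directions, the smallest that 3 against 3 libraries allow). With a library left out, Mt-nd1 passed without replicate 3 of the knockdown vehicle group (0.26, adjusted p = 0.046).

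Other mitochondrial pathways held genes that rose, genes that fell and many that did not pass. Of 28 genes of the tricarboxylic acid cycle and pyruvate dehydrogenase 4 rose, 2 fell and 22 did not pass (median 0.033). In scramble cells 16 rose and 3 fell (median 0.17). The falls were in Suclg2 (-0.45, SE 0.059, adjusted p = 1.4e-06) and Dlat, a core subunit of pyruvate dehydrogenase (-0.35, SE 0.061, adjusted p = 6e-05). Pdhx (0.35, SE 0.083, adjusted p = 0.002) and Idh3g (0.22, SE 0.066, adjusted p = 0.0093) were among the rises. The effect was lower than in scramble cells for 4 members. Pdp1, the phosphatase that reactivates pyruvate dehydrogenase, had the largest gap. It read 31.1, 36.97 and 33.7 then 35.6, 31.6 and 37.1 CPM in knockdown and 47.2, 43.8 and 54.1 then 86.5, 83.2 and 91.3 CPM in scramble cells (difference -0.81, SE 0.12, adjusted p = 0.00014). Idh2 (-0.44, SE 0.076, adjusted p = 0.00086) and Ogdh (-0.37, SE 0.10, adjusted p = 0.031, up to 0.13 with a library left out) differed in the same direction. Of 23 rows for mitochondrial biogenesis, carriers and dynamics 7 rose and 2 fell. Ppif, the cyclophilin of the permeability pore, rose by 0.67 (SE 0.091, adjusted p = 2.3e-06) and the peroxidase Prdx5 by 0.38 (SE 0.054, adjusted p = 5.1e-06). The superoxide dismutase Sod2 was at 0.29 (SE 0.057, adjusted p = 0.00022) and the biogenesis factor Nrf1 at 0.36 (SE 0.075, adjusted p = 0.00047). The phosphate carrier Slc25a3 had -0.10 (SE 0.047) in knockdown and 0.25 (SE 0.047) in scramble cells (difference -0.35, SE 0.067, adjusted p = 0.0026). The ADP/ATP carrier Slc25a5 had a difference of -0.49 (SE 0.073, adjusted p = 0.00018) and the outer-membrane channel Vdac1 of -0.37 (SE 0.083, adjusted p = 0.012, up to 0.053 with a library left out). Of 23 ketone and branched-chain amino acid genes 7 rose and 2 fell, against 16 and 1 in scramble cells. The difference itself passed for 3 members with a lower and 1 with a higher effect in knockdown cells. Bckdha of the branched-chain dehydrogenase rose by 0.57 (SE 0.066, adjusted p = 1.9e-07), its kinase Bckdk by 0.36 (SE 0.053, adjusted p = 8.8e-06) and Bdh1, which oxidizes the ketone hydroxybutyrate, by 0.67 (SE 0.082, adjusted p = 5.5e-07). Oxct1, the enzyme that lets heart use ketones, rose from 137, 143 and 137 to 179, 161 and 160.1 CPM in knockdown cells and from 193, 184 and 193 to 432, 403 and 452 CPM in scramble cells (difference -0.91, SE 0.075, adjusted p = 4.7e-08). For Slc16a1, a ketone and lactate transporter, the difference was -0.31 (SE 0.076, adjusted p = 0.021, up to 0.089 with a library left out). On leaving out a library, Idh3g did not pass without replicate 2 of the knockdown vehicle group (0.17, adjusted p = 0.067).

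The main glucose transporter genes of the heart rose, and glycolytic enzymes moved in both directions. Slc2a1, the GLUT1 transporter, read 139.7, 129.9 and 135 CPM with vehicle and 283, 274 and 282 CPM with 915 (1.05, SE 0.050, adjusted p = 5.7e-14). Slc2a4, the insulin-responsive GLUT4, read 18.1, 14.6 and 14.7 and 31.5, 30.3 and 32.4 CPM (0.99, SE 0.093, adjusted p = 8.5e-09). Over 29 rows of glycolysis, glycogen and glucose transport 9 rose and 4 fell (median 0.015). Ldhb was at 0.42 (SE 0.057, adjusted p = 2.4e-06), the brain-type glycogen phosphorylase Pygb at -0.58 (SE 0.058, adjusted p = 2.1e-08) and Gapdh at 0.18 (SE 0.052, adjusted p = 0.0097). Pkm, pyruvate kinase, did not pass (-0.010, SE 0.045). The effect was lower in knockdown cells for 6 members. Hk2, the insulin-induced hexokinase, read 79.9, 78.8 and 74.8 then 96.4, 99.7 and 101 CPM in knockdown and 81.04, 82.3 and 82.7 then 190.4, 185 and 207 CPM in scramble cells (difference -0.89, SE 0.076, adjusted p = 7.2e-08). Ldha, which makes lactate, had opposite signs, -0.28 (SE 0.051, adjusted p = 0.00011) in knockdown and 0.29 (SE 0.051, adjusted p = 5.6e-05) in scramble cells (difference -0.57, SE 0.072, adjusted p = 2.9e-05). Pgam1, of lower glycolysis, differed by -0.30 (SE 0.067, adjusted p = 0.011) and Ldhb, the heart-type lactate dehydrogenase subunit, by -0.28 (SE 0.081, adjusted p = 0.0497, up to 0.16 with a library left out). After removal of a library, Gapdh did not pass without replicate 3 of the knockdown 915 group (0.12, adjusted p = 0.062).

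Among the gene lists used here, the cardiac stress list had the highest share of members whose effect differed between the cell states. Of its members, 8 of 19 had a lower and 1 a higher 915 effect in knockdown cells, where 1.99% and 1.74% of all genes did. In knockdown cells 8 rose and 5 fell (median 0.062), and in scramble cells 11 rose and 5 fell (median 0.65). Beside this, cardiomyocyte markers summed to 15201 to 16763 CPM with vehicle and 20110.0 to 20982 CPM with 915 in scramble cells, against 9339 to 9725 and 7459.9 to 9563 CPM in knockdown cells. The sum was thus higher with 915 in all scramble libraries and overlapped in knockdown cells. Of the 9 markers, 3 rose and 1 fell in scramble cells (median 0.10), and 2 rose and 2 fell in knockdown cells (median -0.11). Abundant markers weigh most in such a sum. The markers Actc1 and Pln are themselves among the heart genes whose effect differed. The part of the sum in the differences of heart genes was not tested. Nppb, which encodes brain natriuretic peptide, a hormone of strained heart muscle, stood at 108, 125 and 123 CPM with vehicle and 186, 160.1 and 237 CPM with 915 in knockdown cells. In scramble cells it read 150.1, 125 and 153 then 679, 629.6 and 717 CPM. Its change was thus 0.72 (SE 0.15, adjusted p = 0.0046) in knockdown and 2.24 (SE 0.15, adjusted p = 2.4e-06) in scramble cells, a difference of -1.53 (SE 0.20, adjusted p = 0.0053). Xirp2, an actin-binding protein of the intercalated disc, read 167, 152 and 161 then 219, 183 and 235 CPM in knockdown and 129.5, 129.8 and 135 then 479.6, 458 and 483 CPM in scramble cells (difference -1.44, SE 0.095, adjusted p = 1.3e-08). Ankrd1, a titin-associated strain sensor, was 1472, 1569 and 1498 then 1575, 1403 and 1700.1 CPM, overlapping groups, in knockdown cells (0.044, SE 0.058), against 0.83 (SE 0.058) in scramble cells (difference -0.79, SE 0.082, adjusted p = 1.9e-06). Fhl1 had opposite signs, -0.37 (SE 0.049) and 0.32 (SE 0.049) (difference -0.69, SE 0.069, adjusted p = 1.5e-06). Nmrk2, which makes NAD from its riboside, reached a mean of only 1.62 ± 0.464 CPM in knockdown cells with 915 (difference -1.31, SE 0.37, adjusted p = 0.048, up to 0.27 with a library left out). Nppa, atrial natriuretic peptide, rose in both, by 0.62 (SE 0.12, adjusted p = 0.0024) in knockdown and 0.68 (SE 0.12) in scramble cells. Its difference did not pass (-0.065, SE 0.17, adjusted p = 0.89). The ligand genes Tgfb3 and Tgfb2 fell by a log2 change of -1.26 (SE 0.067, adjusted p = 7.9e-12) and -0.69 (SE 0.055, adjusted p = 4.3e-10), the actin crosslinker Actn1 by -0.87 (SE 0.058, adjusted p = 2.1e-11). Myh7, the slow myosin heavy chain, read 695, 697 and 669.6 against 445, 483 and 674 CPM, which did not pass (-0.36, SE 0.13). In fits without a library, Myh7 passed without replicate 3 of the knockdown 915 group (-0.57, adjusted p = 3.6e-08).

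**Figure D4:**
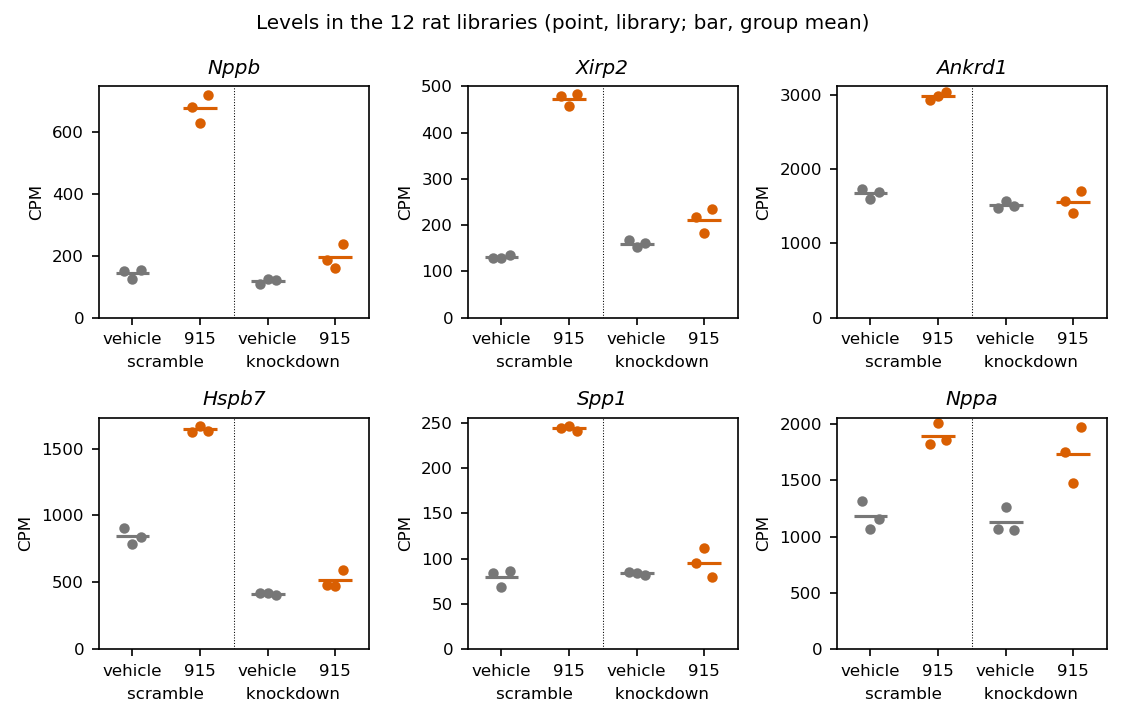
CPM in each of the 12 rat libraries (points; bar, group mean) for 6 genes, with vehicle (grey) and 915 (orange) in scramble cells (left pair) and knockdown cells (right pair), each axis starting at 0. Nppb reached 629.6 CPM or more in scramble cells with 915 and 237 CPM or less in knockdown cells with 915.

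Contractile and conduction genes included both rises and falls. Myh6, the fast myosin heavy chain of the rodent ventricle, fell from 444, 418 and 409 to 197, 177 and 257 CPM (-1.01, SE 0.12, adjusted p = 0.00016). Ldb3, a Z-disc protein, fell from 310.5, 301 and 290.1 to 164, 136 and 183 CPM (-0.90, SE 0.086, adjusted p = 1.6e-06). Tpm1, tropomyosin, fell by a log2 change of -0.34 (SE 0.056, adjusted p = 3.3e-05) and Myom2, an M-band protein, rose by 0.56 (SE 0.074, adjusted p = 2e-06). In all, 6 of 21 contraction genes rose and 4 fell, where 18.1% and 17.6% of all genes did. For Tpm1 the difference from scramble cells was -0.32 (SE 0.079, adjusted p = 0.021, up to 0.077 with a library left out). Ldb3 did not pass in scramble cells (0.044, SE 0.083, difference -0.95, SE 0.12, adjusted p = 0.00046). Actc1, cardiac actin, which did not pass in knockdown cells (-0.11, SE 0.070), rose by 0.77 (SE 0.070) in scramble cells (difference -0.88, SE 0.10, adjusted p = 1.2e-05). Mybpc3 did likewise (-0.11, SE 0.077 against 0.64, SE 0.077, difference -0.75, SE 0.11, adjusted p = 0.00062). Myh1, a myosin of fast skeletal muscle, fell from 20.8, 21.6 and 24.6 to 4.48, 5.46 and 5.14 CPM, as part of a gene family in which similar copies can share reads. Of 25 calcium and ion channel genes 10 fell and 5 rose (median -0.077). Casq2, the calcium store of the sarcoplasmic reticulum, fell by a log2 change of -0.64 (SE 0.062, adjusted p = 3.3e-08) and the exchanger Slc8a1 by -0.47 (SE 0.054, adjusted p = 1.7e-07). The pacemaker channel Hcn4 fell by a log2 change of -0.65 (SE 0.068, adjusted p = 1.9e-07) and the calcium release channel Ryr2 by -0.73 (SE 0.089, adjusted p = 2.9e-05). Gja5, a gap junction protein of atrium and conduction system, rose by 0.80 (SE 0.083, adjusted p = 4.3e-08) in knockdown cells against -0.044 (SE 0.086) in scramble cells (difference 0.85, SE 0.12, adjusted p = 9.8e-05). Pln, the brake on the calcium pump, did not pass (-0.077, SE 0.073, difference -0.52, SE 0.10, adjusted p = 0.0074). Jph2, which couples membranes at the dyad, had opposite signs, -0.41 (SE 0.053) and 0.20 (SE 0.052) (difference -0.61, SE 0.075, adjusted p = 1.8e-05). Among 16 cardiac transcription factors 9 fell and 4 rose. Gata6 (-0.51, SE 0.068, adjusted p = 1.7e-06), Tead1 (-0.49, SE 0.067, adjusted p = 2.9e-06) and the SRF partner Myocd (-0.56, SE 0.082, adjusted p = 6.8e-06) fell. Nkx2-5 rose (0.53, SE 0.057, adjusted p = 7.8e-08). Mef2d did not pass (0.12, SE 0.060). Gata4 differed between the states at -0.12 (SE 0.046) against 0.26 (SE 0.046) (difference -0.38, SE 0.065, adjusted p = 0.00084). So did Irx4 (-0.62, SE 0.12, adjusted p = 0.0055) and Hopx (-0.62, SE 0.13, adjusted p = 0.0074). With a library left out, Actc1 passed without replicate 3 of the knockdown 915 group (-0.20, adjusted p = 0.015). Likewise, Mybpc3 passed without replicate 3 of the knockdown 915 group (-0.23, adjusted p = 0.0028). Likewise, Mef2d passed without replicate 2 of the knockdown 915 group (0.17, adjusted p = 0.044). Likewise, Gata4 did not pass without replicate 2 of the knockdown 915 group (-0.086, adjusted p = 0.19), the highest p of 7 such losses.

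In the actin, adhesion and matrix lists more genes fell than rose in knockdown cells. Serum response factor with its MRTF coactivators drives the actin cytoskeleton genes, and 19 of 22 of these fell and 0 rose (median -0.85). Acta2, smooth muscle actin, read 1999, 2259 and 2094 CPM with vehicle and 931, 1080.2 and 895 CPM with 915 (-1.13, SE 0.074, adjusted p = 1.3e-09). Actb, cytoplasmic actin, read 2124, 2295 and 2263 and 1176, 1229 and 1020.0 CPM (-0.96, SE 0.073, adjusted p = 4.7e-09). The crosslinker Flna read 2438, 2605 and 2469 and 1355, 1578 and 1446 CPM (-0.78, SE 0.062, adjusted p = 4.8e-10). No library with 915 reached the lowest vehicle library for these genes. Lmod1, an actin nucleator of smooth muscle, fell by a log2 change of -1.48 (SE 0.078, adjusted p = 3.8e-13). The tropomyosin Tpm4 fell by a log2 change of -0.91 (SE 0.059, adjusted p = 2.1e-11) and the adhesion adaptor Vcl by -0.75 (SE 0.048, adjusted p = 1e-11). Zyx did not pass (-0.11, SE 0.046). Of 21 integrins and adhesion genes 15 fell and 0 rose (median -0.39). The smallest p values were those of Itga11 (-1.13, SE 0.080, adjusted p = 6.8e-11), Itga8 (-1.51, SE 0.11, adjusted p = 1e-10), Itga6 (-0.94, SE 0.070, adjusted p = 1.5e-10) and Itga1 (-0.89, SE 0.070, adjusted p = 3.5e-10). Itga4, a leukocyte and epicardial integrin, went from 32.97, 37.4 and 36.1 to 9.83, 11.1 and 5.01 CPM. Ncam1 did not pass (0.11, SE 0.054). On leaving out a library, Ncam1 passed without replicate 2 of the knockdown 915 group (0.16, adjusted p = 0.032).

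Of 42 extracellular matrix genes 24 fell and 7 rose (median -0.41). Fn1, fibronectin, fell from 8656, 9524 and 9225 to 5490.1, 6156 and 4852 CPM (-0.73, SE 0.075, adjusted p = 1.6e-07). The fibrillar collagens Col1a1 and Col3a1 fell by a log2 change of -0.50 (SE 0.089, adjusted p = 0.00036) and -0.52 (SE 0.11, adjusted p = 0.0046). Tnc, tenascin, fell from 359.8, 403 and 368 to 144, 159 and 124 CPM (-1.40, SE 0.079, adjusted p = 1.3e-09). Smoc1, a calcium-binding matrix protein, fell from 44.5, 53.98 and 50.7 to 8.81, 11.4 and 10.9 CPM (-2.25, SE 0.11, adjusted p = 2.7e-13). The giant matrix protein Hmcn1 fell from 80.2, 78.7 and 74.1 to 22.9, 21.9 and 18.97 CPM (-1.87, SE 0.079, adjusted p = 1.1e-14). Col4a4 fell by a log2 change of -0.81 (SE 0.065, adjusted p = 1.9e-09), and Col4a1, the basement membrane collagen, did not pass (-0.11, SE 0.073). Spp1, osteopontin, did not pass in knockdown cells (85.7, 83.9 and 81.7 then 95.1, 111 and 79.9 CPM, 0.19, SE 0.11). It rose in scramble cells (84.5, 68.1 and 85.9 then 244, 247 and 241 CPM, 1.62, SE 0.11, adjusted p = 3.4e-07), a difference of -1.43 (SE 0.16, adjusted p = 0.00048). Timp1, a protease inhibitor, rose by 0.40 (SE 0.055) against 0.061 (SE 0.057) (difference 0.34, SE 0.079, adjusted p = 0.015, up to 0.071 with a library left out). Smoc2 rose by 0.23 (SE 0.086) against -0.44 (SE 0.092) (difference 0.67, SE 0.13, adjusted p = 0.0024). After removal of a library, Col4a1 passed without replicate 2 of the knockdown 915 group (-0.20, adjusted p = 0.018). Likewise, Spp1 passed without replicate 3 of the knockdown 915 group (0.30, adjusted p = 0.0093). Likewise, Smoc2 did not pass without replicate 3 of the knockdown vehicle group (0.15, adjusted p = 0.23), the highest p of 4 such losses.

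TGF-beta and BMP ligands signal through receptor kinases to SMAD factors and promote matrix production. Of 24 genes of this pathway 18 fell and 0 rose (median -0.52). Besides the ligands Tgfb3, Tgfb2 and Bmp6, the BMP antagonist Grem1 fell from 95.2, 109 and 108 to 41.7, 42.6 and 42.4 CPM (-1.30, SE 0.081, adjusted p = 1.7e-11). The receptor Tgfbr2 did not pass (0.057, SE 0.056). Gdf6, a BMP-family ligand outside the list, fell from 61.6, 71.3 and 62.7 to 17.4, 20.5 and 12.6 CPM (-1.96, SE 0.14, adjusted p = 2.9e-08). The fall was smaller than in scramble cells for Tgfb3 (difference 0.38, SE 0.093, adjusted p = 0.025, up to 0.084 with a library left out), Grem1 (0.43, SE 0.12, adjusted p = 0.04, up to 0.14 with a library left out) and the feedback inhibitor Smad7 (0.35, SE 0.085, adjusted p = 0.02, up to 0.074 with a library left out). Of 20 transcription factors of mesenchyme and epicardium 10 fell and 1 rose. Osr1 fell from 144, 158 and 169 to 29.3, 37.9 and 26.5 CPM. Foxc2 fell by a log2 change of -1.17 (SE 0.10, adjusted p = 9.1e-10), Tbx18 by -1.13 (SE 0.086, adjusted p = 2.2e-10) and Zeb2 by -0.74 (SE 0.064, adjusted p = 2.2e-09). Tcf21, a fibroblast factor, did not pass (-0.34, SE 0.14). Beside these falls, of 12 fibroblast markers 7 fell and 1 rose, their sum going from 10831 to 12478 CPM with vehicle to 7262 to 9452 CPM with 915. For smooth muscle and pericytes, 7 of 10 markers fell and 2 rose, their sum going from 5569 to 6263 to 2881 to 3386 CPM. Of 8 epicardial markers 3 fell and 2 rose, and the mesothelial gene Upk3b read 8.86, 12.1 and 11.2 then 2.91, 2.08 and 3.11 CPM. Their sum was 212 to 246 then 170.2 to 186 CPM. No marker of these lists was at 0 in all knockdown libraries. The fibroblast gene Dcn, decorin, rose by 0.62 (SE 0.081, adjusted p = 5.2e-06) and the pericyte gene Cspg4 by 0.50 (SE 0.057, adjusted p = 1.4e-07), against the direction of their lists. The part of cell composition in the falls was not tested. In fits without a library, Smad7 did not pass without replicate 1 of the knockdown 915 group (-0.15, adjusted p = 0.064), the highest p of 2 such losses. Likewise, Tcf21 passed without replicate 2 of the knockdown 915 group (-0.54, adjusted p = 0.00092).

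Most interferon-stimulated genes fell, with a median closer to 0 than in scramble cells. These genes encode antiviral effectors and are switched on by interferon signalling. Of 32 tested 21 fell and 1 rose in knockdown cells (median -0.68), against 27 and 1 in scramble cells (median -1.36). Samd9l read 191, 208 and 231 CPM with vehicle and 76.2, 75.1 and 56.5 CPM with 915 (-1.60, SE 0.21, adjusted p = 0.00038). Bst2, tetherin, read 95.6, 97.99 and 94.9 and 43.9, 53.01 and 52.6 CPM (-0.95, SE 0.12, adjusted p = 5.2e-05). Parp14 changed by -1.17 (SE 0.13, adjusted p = 7.7e-05) and the RNA sensor Oas2 by -1.37 (SE 0.25, adjusted p = 0.00013). Ifi27 did not pass (-0.045, SE 0.10). The difference from scramble cells itself passed for 2 of the 32, Bst2 (1.11, SE 0.18, adjusted p = 0.0042) and the immunoproteasome subunit Psmb9 (0.78, SE 0.17, adjusted p = 0.019, up to 0.075 with a library left out).

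The inflammatory, immediate early and clock lists held more rises than falls. Of 19 cytokine and chemokine genes 11 rose and 4 fell (median 0.27). Il6, interleukin 6, went from 3.51, 2.49 and 2.02 to 7.78, 7.93 and 7.804 CPM (1.55, SE 0.26, adjusted p = 4.9e-05). The complement gene C3 rose by 1.04 (SE 0.15, adjusted p = 6.1e-06) and the receptor Il1r1 fell by a log2 change of -0.88 (SE 0.11, adjusted p = 6.8e-06). Csf1 did not pass (0.092, SE 0.053). Csf2rb, the shared beta chain of the GM-CSF and interleukin 3 receptors, rose from 3.95, 2.88 and 2.08 to 11.2, 11.4 and 10.7 CPM (1.90, SE 0.21, adjusted p = 1.4e-07). The 915 effect was higher in knockdown cells for 4 list members, among them Il6r (0.27, SE 0.095 against -0.41, SE 0.095, difference 0.68, SE 0.13, adjusted p = 0.0036). The chemokine Cxcl1 was another (0.30, SE 0.11 against -0.28, SE 0.12, difference 0.57, SE 0.16, adjusted p = 0.044, up to 0.12 with a library left out), and so was the NF-kappaB inhibitor Tnfaip3 (-0.24, SE 0.092 against -0.78, SE 0.10, difference 0.54, SE 0.13, adjusted p = 0.025, up to 0.097 with a library left out). Of 17 immediate early genes 10 rose and 1 fell (median 0.57). The orphan receptor Nr4a1 read 34.7, 36.3 and 35.5 then 87.05, 80.8 and 87.8 CPM (1.26, SE 0.065, adjusted p = 2.5e-13). Atf3 rose by 1.02 (SE 0.081, adjusted p = 1.5e-09), Jund by 0.57 (SE 0.047, adjusted p = 1.2e-09) and Myc by 0.68 (SE 0.080, adjusted p = 2.9e-07). Jun did not pass (0.082, SE 0.054). Egr1 (0.57, SE 0.083 against -0.022, SE 0.088, difference 0.59, SE 0.12, adjusted p = 0.0057) and Fos (0.65, SE 0.12 against -0.094, SE 0.12, difference 0.74, SE 0.17, adjusted p = 0.013, up to 0.053 with a library left out) rose in knockdown cells and did not pass in scramble cells. Of 19 clock genes 10 rose and 0 fell. The repressor Nfil3 rose by 1.13 (SE 0.082, adjusted p = 9.1e-11), and its difference from scramble cells was 0.53 (SE 0.11, adjusted p = 0.0084). Cry2 (0.56, SE 0.059, adjusted p = 5.7e-08), Ciart (1.01, SE 0.11, adjusted p = 7.2e-08) and Bhlhe40 (0.44, SE 0.050, adjusted p = 2e-07) rose too. Tef did not pass (0.076, SE 0.051). Macrophage and leukocyte markers, beside these rises, summed to 62.4 to 66.5 CPM with vehicle and 74.7 to 98.7 CPM with 915. Of 7 tested, 2 rose, Cd68 (0.95, SE 0.14, adjusted p = 1.1e-05) and Lyz2 (0.59, SE 0.14, adjusted p = 0.003), and Csf1r did not pass (-0.17, SE 0.12). Their part was not tested. With a library left out, Il6r did not pass without replicate 3 of the knockdown vehicle group (0.23, adjusted p = 0.11), the highest p of 4 such losses. Likewise, Cxcl1 did not pass without replicate 2 of the knockdown vehicle group (0.18, adjusted p = 0.23), the highest p of 5 such losses. Likewise, Tnfaip3 did not pass without replicate 3 of the knockdown vehicle group (-0.18, adjusted p = 0.2), the highest p of 6 such losses.

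More genes of autophagy and lysosome rose than fell. Of 33 autophagy and lysosome genes 19 rose and 3 fell (median 0.23). Gabarapl1, a membrane conjugate of autophagosomes, rose by 0.68 (SE 0.070, adjusted p = 7.4e-08) and Gabarap by 0.42 (SE 0.047, adjusted p = 1.5e-07). The protease Ctsd rose from 636, 698 and 627 to 873, 912 and 944 CPM (0.48, SE 0.052, adjusted p = 8.3e-08). Lamp2 did not pass (-0.027, SE 0.047). The cathepsin Ctsz differed between the states (0.37, SE 0.088 against -0.070, SE 0.090, difference 0.44, SE 0.13, adjusted p = 0.0498, up to 0.16 with a library left out). Of 15 muscle ubiquitin ligase genes 4 rose and 3 fell, where 18.1% and 17.6% of all genes did. The atrophy ligases Trim63 and Fbxo32 rose by 0.73 (SE 0.064, adjusted p = 2e-09) and 0.35 (SE 0.062, adjusted p = 8.8e-05). Klhl31 and Fbxo40 fell by a log2 change of -0.76 (SE 0.069, adjusted p = 7.9e-09) and -0.63 (SE 0.10, adjusted p = 1.5e-05). They did not pass in scramble cells (differences -0.61, SE 0.10, adjusted p = 0.00046 and -0.80, SE 0.14, adjusted p = 0.00086). Trim55, which did not pass (-0.14, SE 0.063), differed as well (-0.62, SE 0.090, adjusted p = 0.00015). Klhl40, a stabilizer of thin filament proteins, rose from 7.85, 6.87 and 8.02 to 29.9, 27.998 and 26.8 CPM (1.90, SE 0.13, adjusted p = 3.1e-11). On leaving out a library, Trim55 passed without replicate 3 of the knockdown 915 group (-0.19, adjusted p = 0.04). It also passed without replicate 1 of that group (-0.19, adjusted p = 0.042).

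Of 20 amino acid and ion transporters 7 rose and 8 fell. The glutamine carrier Slc38a1 rose by 0.84 (SE 0.058, adjusted p = 4.4e-11) and the leucine exchanger Slc7a5 by 0.70 (SE 0.062, adjusted p = 6.2e-09). The creatine transporter Slc6a8 rose less than in scramble cells (difference -0.51, SE 0.078, adjusted p = 0.00028). Slc38a2 did not pass (-0.019, SE 0.052). Of 14 hypoxia targets 6 rose and 3 fell. Vegfa read 275, 261 and 236 then 475, 459 and 547 CPM (0.94, SE 0.064, adjusted p = 1.3e-10). The collagen hydroxylase P4ha1 fell by a log2 change of -0.81 (SE 0.066, adjusted p = 3.6e-09) and the carbonic anhydrase Car9 by -1.26 (SE 0.15, adjusted p = 2.6e-07). Kdm3a did not pass (0.040, SE 0.060). Car9 (difference 0.74, SE 0.21, adjusted p = 0.043, up to 0.14 with a library left out), Epas1 (0.50, SE 0.078, adjusted p = 0.0003) and Ndrg1 (0.39, SE 0.11, adjusted p = 0.048, up to 0.16 with a library left out) differed from scramble cells. Of 14 p53 targets 8 fell and 2 rose. The cell-cycle inhibitor Cdkn1a fell by a log2 change of -0.45 (SE 0.052, adjusted p = 1.7e-07) and Zmat3 by -0.45 (SE 0.067, adjusted p = 9.4e-06). Btg2 rose by 0.61 (SE 0.055, adjusted p = 4.7e-09) and Gadd45a by 0.66 (SE 0.078, adjusted p = 3.4e-06). Aen did not pass (-0.047, SE 0.055), and Ccng1 differed from scramble cells (-0.35, SE 0.077, adjusted p = 0.0085). Of 31 cell cycle genes 7 fell and 1 rose, where 17.6% and 18.1% of all genes did. Ccnd1, cyclin D1, read 140.2, 153 and 131 then 79.5, 79.1 and 82.2 CPM (-0.82, SE 0.059, adjusted p = 8.5e-11). The helicase subunit Mcm6 fell by a log2 change of -0.53 (SE 0.10, adjusted p = 0.00012) and Rrm2 by -1.27 (SE 0.33, adjusted p = 0.0053). Mcm7 did not pass (0.069, SE 0.066). Of 18 rows of glucocorticoid targets 6 rose and 3 fell. The heart's circadian metabolic factor Klf15 rose by 0.78 (SE 0.079, adjusted p = 2.4e-08) and Ddit4 by 0.71 (SE 0.064, adjusted p = 4.2e-09). The receptor gene Nr3c1 did not pass (0.0031, SE 0.051). In the thyroid hormone axis 1 of 6 rose, Trh, the precursor of thyrotropin-releasing hormone, from 4.46, 4.93 and 3.15 to 14.7, 19.2 and 17.5 CPM. The receptor gene Thra did not pass (0.12, SE 0.060). After removal of a library, Rrm2 did not pass without replicate 2 of the knockdown vehicle group (-0.77, adjusted p = 0.058).

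Further large changes lay outside the lists. Podxl, a sialomucin of the cell surface, rose from 7.297, 7.09 and 6.41 to 22.96, 19.4 and 21.6 CPM (1.62, SE 0.10, adjusted p = 9.5e-12). Lrrc2, a leucine-rich repeat protein, rose from 6.13, 4.71 and 6.06 to 19.97, 13.97 and 16.3 CPM (1.57, SE 0.13, adjusted p = 1e-09). Mreg, melanoregulin, rose from 3.51, 3.27 and 1.78 to 7.94, 8.12 and 8.95 CPM (1.54, SE 0.23, adjusted p = 8.2e-06). LOC292543, which the table describes as similar to a cationic amino acid transporter, fell from 33.9, 29.5 and 30.3 to 6.998, 5.85 and 6.09 CPM (-2.31, SE 0.13, adjusted p = 1e-12). The vehicle and 915 libraries of each were apart, as the rule that named these genes required. Rplp0, a ribosomal stalk protein often used as a reference gene, rose from 1287, 1278 and 1246 to 1841, 1843 and 1953 CPM (0.56, SE 0.047, adjusted p = 1.2e-09).

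Most of what 915 did in knockdown cells it also did in scramble cells. The comparisons share no library but share an estimate of the spread, and 4085 genes were called in both, 38 of them with opposite signs. The 4047 with the same sign are 74.7% of the genes called in knockdown cells and 63.2% of those called in scramble cells. Of the same-sign genes 2010 rose and 2037 fell in both. Across the 15181 genes, which are not independent replicates, the changes in the cell states had a Pearson correlation of 0.611 and a Spearman correlation of 0.670, given as a description. Of the 344 genes that fell by at least 2-fold in knockdown cells 267 (77.6%) also fell in scramble cells, with median changes of -1.34 and -1.41. Of the 258 that rose by at least 2-fold 146 (56.6%) also rose there, with medians of 1.38 and 0.87. Taken from the other side, of 682 genes that fell by at least 2-fold in scramble cells 492 (72.1%) also fell in knockdown cells (medians -1.33 and -0.89). Of 212 there that rose by at least 2-fold 143 (67.5%) also rose (medians 1.37 and 0.97). A list chosen by a large change in a cell state favours that state, so the medians are set side by side in both directions.

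**Figure D5:**
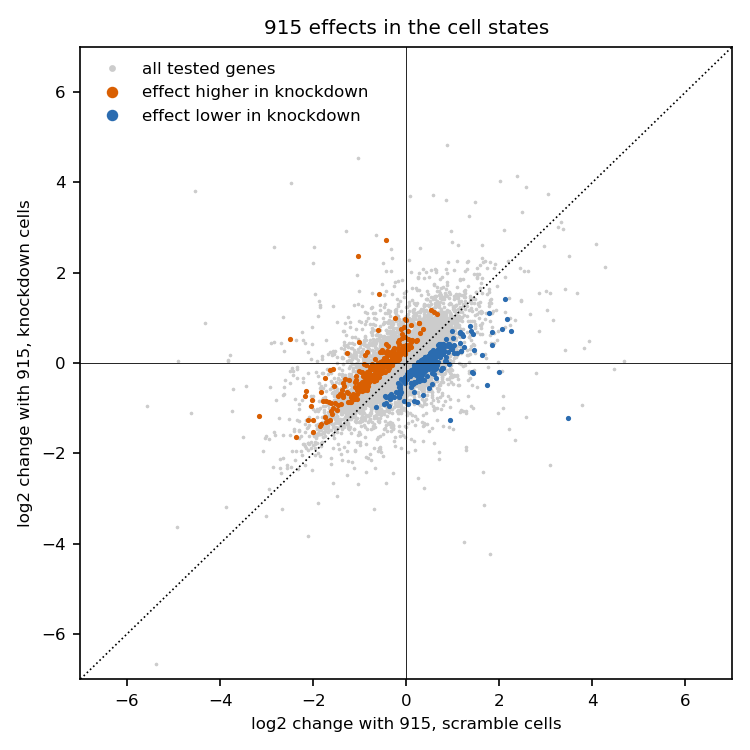
Log2 change with 915 in scramble cells (horizontal) against that in knockdown cells (vertical) for 15181 genes (grey), with the 566 genes whose effects differed in colour (orange, higher in knockdown cells; blue, lower) and the line of equal change. The Pearson correlation across genes was 0.611, which does not measure closeness to the line of equal change. Among the coloured genes, 294 kept the sign with a smaller change in knockdown cells and 54 with a larger one, by the estimates and whether or not each change was called.

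Of the 566 genes with a differing effect, 294 kept the sign and had a smaller change in knockdown cells (131 rises and 163 falls). Another 54 kept the sign and had a larger one (20 rises and 34 falls), and 218 had opposite signs, 137 of them lower in knockdown and higher in scramble cells. Signs here are those of the estimates, whether or not a change was itself called. Of the 566, 221 were called in both states with the same sign and 38 with opposite signs. Single differences were ranked among genes called for the difference with a mean of at least 5 CPM over the 12 libraries. The lowest of these belonged to Gnb3, a G-protein beta subunit gene. It read 2.95, 4.6002 and 3.68 then 1.81, 3.44 and 4.25 CPM in knockdown and 25.9, 23.7 and 21.6 then 58.9, 60.8 and 71.9 CPM in scramble cells (difference -1.64, SE 0.29, adjusted p = 0.0061). Gnb3 was below 5 CPM in every knockdown library, so only its scramble libraries carried it past that mean. Nppb, Xirp2, Spp1 and Nmrk2, given above, followed. Nmrk2 too had a mean below 5 CPM in knockdown cells with 915. Gstk1, a mitochondrial and peroxisomal glutathione transferase, rose in both states, by 0.69 (SE 0.13) and 1.84 (SE 0.12) (difference -1.14, SE 0.17, adjusted p = 0.00027). So did the cadherin Cdh17 (0.98, SE 0.20 and 2.17, SE 0.19, difference -1.19, SE 0.27, adjusted p = 0.013). The cytoskeletal septin gene Sept6 read 4.51, 3.77 and 4.63 then 5.82, 5.85 and 4.25 CPM in knockdown and 14.6, 16.6 and 18.4 then 46.8, 42.97 and 46.4 CPM in scramble cells (difference -1.16, SE 0.19, adjusted p = 0.00046). On the other side Slc22a3, an organic cation transporter, fell in both (-0.73, SE 0.21 and -2.18, SE 0.21, difference 1.44, SE 0.30, adjusted p = 0.0055). Gcgr, the glucagon receptor, rose from 6.29, 7.21 and 4.87 to 12.3, 11.95 and 12.6 CPM in knockdown cells and read 20.6, 20.9 and 20.002 then 16.7, 16.8 and 18.3 CPM in scramble cells (difference 1.25, SE 0.18, adjusted p = 0.00012). Ckmt1b, a mitochondrial creatine kinase, had opposite signs (0.73, SE 0.20 and -0.61, SE 0.20, difference 1.34, SE 0.28, adjusted p = 0.0066). Mpeg1, a macrophage perforin, Arap3, a regulator of small GTPases, and Fam181b did not pass in knockdown cells and fell in scramble cells. Their differences were 1.49 (SE 0.27, adjusted p = 0.0016), 1.41 (SE 0.33, adjusted p = 0.015, up to 0.064 with a library left out) and 1.49 (SE 0.27, adjusted p = 0.0019). For genes named here with a vehicle level in knockdown cells far from that in scramble cells, such as Gnb3, the change with 915 started from unequal levels, and the part of the starting level in the difference was not tested. In fits without a library, Fam181b passed without replicate 2 of the knockdown 915 group (0.58, adjusted p = 0.028). It also passed without replicate 2 of the knockdown vehicle group (0.59, adjusted p = 0.035) and without some of the scramble libraries.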

How the data were processed

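Gene counts, FPKM values and the authors' own comparisons were deposited in a table of 32545 rat genes, and the 12 rat libraries (vehicle or 915, in scramble or knockdown cells, 3 each) were used here. Per the submitters' processing notes, which give no order or role, the authors used featureCounts 1.5.0-p3, StringTie 1.3.3b, DESeq2 1.20.0 and HISAT2 2.0.5 with build rn6. The values used are the deposited raw counts per gene, whole numbers that the authors had not normalized. The preparation carried no strand information, per the labels' protocols, so overlapping and antisense genes cannot be told apart. The deposited log2 fold changes and adjusted p-values of the authors' deposited table served only to count shared calls: it called 4493 genes for 915 in knockdown cells, of which 4407 were also called here, 0 with the opposite sign. The deposited FPKM values, the mouse data and rat sequences were not used here.

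In R 4.3.3, 9390 genes had no count in any rat library, and 15181 passed edgeR's filterByExpr with a minimum count of 10. Counts of all 12 libraries were scaled by TMM (factors 0.954 to 1.06) and fitted as 4 groups, which share 1 estimate of the spread, with edgeR 4.0.16's robust quasi-likelihood F-test (glmQLFit and glmQLFTest). Contrasts were 915 minus vehicle in knockdown cells, the same in scramble cells, and their difference. Every p-value printed for a gene comes from this test, adjusted by Benjamini-Hochberg over all tested genes, and calls use 0.05. Each SE is the size of the log2 change divided by the square root of the F statistic. It is thus not independent of the p-value. The common biological coefficient of variation was 0.104. Scripts were tested on simulated data.

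The 48 gene lists (1043 entries) and the genes named were chosen with earlier results of these data known, from lists of an earlier session on the same data. The rule named the 12 largest rises and the 12 largest falls among called genes of at least 5 CPM whose groups did not overlap, the 10 most abundant called genes with a change of at least 0.5 on the log2 scale, up to 4 members of each list with the smallest adjusted p and its most abundant member not called, the 8 largest differences between the cell states in each direction, and a set of 20 genes. Up to 3 members per list with the smallest adjusted p of the difference were added after their values were seen. Some genes that the rule names are not reported here. Replicates of the same number were not treated as pairs: the correlation of their deviations from the group means was 0.0356, 0.0222 and -0.0074. The alternatives left out the low-count filter, asked for at least 5 CPM in at least 3 libraries, or used RLE size factors, the Wald test of DESeq2 1.42.0, fits of only the groups compared, a replicate block, each library left out and a fold of at least 2; for differences of single genes they were added after the data were seen.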

Additional observations from a re-analysis of the deposited data

Results flagged for a closer look

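Each result here stood out because its effect of 915 differed between knockdown and scramble cells by the interaction contrast of the fit over all genes, and values are the log2 change in knockdown cells minus that in scramble cells. The test called 566 genes in all. Of the 87 named differences, 29 were lost when a library was left out, and their highest adjusted p in those fits is given in the results above, as for Ldhb (0.16) and Tpm1 (0.077). Groups of 3 libraries are too small for a check for outlying samples.

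Among genes of the receptor family and of heart muscle (stress, contraction, calcium, transcription factors and ubiquitin ligases), the difference was -1.53 for Nppb, -1.44 for Xirp2, -1.31 for Nmrk2, -0.95 for Perm1, -0.95 for Ldb3, -0.88 for Esrrg, -0.88 for Actc1, -0.80 for Fbxo40, -0.79 for Ankrd1, -0.75 for Mybpc3, -0.69 for Fhl1, -0.62 for Hopx, -0.62 for Trim55, -0.62 for Irx4, -0.61 for Jph2, -0.61 for Klhl31, -0.60 for Ppargc1b, -0.52 for Pln, -0.38 for Gata4 and -0.32 for Tpm1. On the positive side of the same genes it was 0.85 for Gja5 and 0.38 for Tgfb3. Among genes of fuel, sterol, hypoxia and amino acid handling, the difference was -0.91 for Oxct1, -0.89 for Hk2, -0.57 for Ldha, -0.51 for Slc6a8, -0.43 for Acsl1, -0.31 for Slc16a1, -0.30 for Pgam1 and -0.28 for Ldhb. On the positive side of the same genes it was 1.99 for Ucp3, 1.205 for Lipe, 1.03 for Angptl4, 0.86 for Pdk4, 0.82 for Ucp2, 0.75 for Decr1, 0.74 for Car9, 0.60 for Slc27a1, 0.50 for Epas1, 0.39 for Ndrg1, 0.38 for Fdft1 and 0.31 for Phgdh. Among mitochondrial genes, the difference was -0.81 for Pdp1, -0.49 for Slc25a5, -0.44 for Idh2, -0.39 for Ndufs1, -0.37 for Ogdh, -0.37 for Vdac1, -0.35 for Slc25a3, -0.31 for Cycs and -0.26 for Uqcrc2.

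Among stress and degradation genes, the difference was -0.65 for Hspb7, -0.63 for Gsta4, -0.52 for Txnrd1, -0.46 for Srxn1, -0.46 for Hspb8, -0.35 for Ccng1, -0.32 for Ddit3, -0.28 for Sqstm1 and -0.27 for Cryab. On the positive side of the same genes it was 0.44 for Ctsz, 0.42 for Creld2 and 0.34 for Herpud1. Among genes of matrix, actin, adhesion and TGF-beta, the difference was -1.43 for Spp1. On the positive side of the same genes it was 0.67 for Smoc2, 0.43 for Grem1, 0.35 for Smad7 and 0.34 for Timp1. Among interferon, inflammatory, immediate early and clock genes, the difference was 1.11 for Bst2, 0.78 for Psmb9, 0.74 for Fos, 0.68 for Il6r, 0.59 for Egr1, 0.57 for Cxcl1, 0.54 for Tnfaip3 and 0.53 for Nfil3. Among the remaining named genes, the difference was -1.64 for Gnb3, -1.19 for Cdh17, -1.16 for Sept6 and -1.14 for Gstk1. On the positive side of the same genes it was 1.49 for Fam181b, 1.49 for Mpeg1, 1.44 for Slc22a3, 1.41 for Arap3, 1.34 for Ckmt1b, 1.25 for Gcgr and 0.38 for Cspg4.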

How the results depend on the processing

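Without any 1 of the 12 libraries, 915 changed 4627 to 5394 genes in knockdown cells (2330 to 2729 higher, 2276 to 2668 lower) and 5536 to 6625 in scramble cells, with 3612 to 3897 changed in both with the same sign. The count of genes whose effect differed ranged from 259 to 677 in these fits, the widest of these ranges relative to its lowest value. Requiring at least 2-fold left 602 changed genes (258 higher, 344 lower) and 39 differing genes, 894 changed genes in scramble cells and 343 changed in both with the same sign; a stricter rule keeps fewer genes by construction. Over RLE size factors, no filter, the stricter filter, DESeq2 and fits of only the groups compared, changed genes in knockdown cells numbered 4999 to 5447, and over those of these settings that allow the test of the difference, differing genes numbered 563 to 760. RLE size factors moved the median change of all genes by 0.0128 and gave 2916 higher and 2531 lower genes.

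Replicate numbers in the labels do not mark a shared isolation or day. With the replicate block, 5292 genes changed in knockdown cells, 6276 in scramble cells, 3969 in both with the same sign, and 542 differed; of 275 named genes 3 lost and 2 gained a call. No named gene changed sign past the threshold under any alternative, and no gene called here for 915 in knockdown cells was called with the opposite sign. The mitochondrial share rose by 1.28 to 1.73 percentage points when a knockdown library was left out. With 3 libraries a group, each treated knockdown library of lower total than each vehicle library, and replicates of unknown independence, small changes and low-count genes such as Esrrb are the least precise.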
